A study of Mus musculus with 8 samples.

Results

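Lin28a, Lin28b, Trim71, Hmga2, Igf2bp1, Igf2bp2 and Igf2bp3 were followed in mouse embryonic stem cells that lacked the long noncoding RNA Evx1as or carried the label EVX1 KO. They were taken from the deposited expression table by gene symbol, which gave 7 genes of 38610 symbols. All 7 were among the 13188 genes that 2 or more of the 8 libraries put at 1 FPKM or higher, the filter used here. FPKM is the number of sequenced fragments scaled to transcript length and library size. The cells were of the CJ9 line, strain 129S4/SvJae, and every group had been without leukemia inhibitory factor for 4 days, so that differentiation was under way. There were 3 Evx1as KO libraries, 3 EVX1 KO libraries and 2 wild-type (WT) libraries, all of poly(A) mRNA. The series title gives CRISPR as the method of both knockouts. The labels name neither the number of clones nor the position of the edits.

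These genes belong to a circuit that marks early embryonic cells. The LIN28 proteins bind the precursors of let-7, a family of microRNAs that accumulate as cells differentiate, and block their maturation. Mature let-7 in turn represses the mRNAs of Lin28a, Lin28b, Trim71, Hmga2 and the Igf2bp genes. TRIM71 is a stem cell ubiquitin ligase that also binds and represses mRNAs, HMGA2 is a chromatin protein that bends AT-rich DNA, and the IGF2BP proteins bind mRNAs such as those of Igf2 and Myc and affect their stability and translation.

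The link between these genes can be read in their sequences. The table of RefSeq microRNAs (build GRCm38.p6) held 9 distinct mature mouse let-7 and miR-98 sequences, and all of them had the same seed, GAGGUAG, at bases 2 to 8. The 4 shown here differ outside the seed, which stands in capitals.
mmu-let-7a-5p: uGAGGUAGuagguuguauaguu
mmu-let-7d-5p: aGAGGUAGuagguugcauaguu
mmu-let-7g-5p: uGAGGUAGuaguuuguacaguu
mmu-miR-98-5p: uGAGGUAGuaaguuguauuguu

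LIN28 is known to bind the letters GGAG in the loop region of let-7 hairpins. Of the 12 mouse let-7 and miR-98 hairpins, 9 held GGAG after the 5p arm, and Mir98, Mirlet7b and Mirlet7c-2 did not. GGAG is short, and 44.5% of all 1005 mouse hairpins in the table held it somewhere on the RNA strand. A hairpin with the motif, in capitals, and one without it are shown for comparison.
Mirlet7g: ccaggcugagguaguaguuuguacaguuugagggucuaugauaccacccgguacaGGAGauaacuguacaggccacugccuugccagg
Mirlet7b: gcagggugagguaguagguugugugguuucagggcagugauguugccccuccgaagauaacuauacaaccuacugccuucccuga

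Each of the 7 genes held the reverse complement of the let-7 seed, CTACCTC, in its annotated 3′ UTR (GENCODE M21 on GRCm38, mRNA strand only). The longest annotated 3′ UTR of each gene was searched. There were 4 matches each in Lin28b, Trim71, Hmga2 and Igf2bp1, 2 in Lin28a, and 1 each in Igf2bp2 and Igf2bp3. The motif stood in 9.02% of the 21010 genes with an annotated 3′ UTR. Long UTRs hold it more often, and among genes whose UTR length was within 25% of the member's, the share with a match ran from 11.5% for Igf2bp2 to 32.1% for Igf2bp1. Of the 2890 genes of like UTR length to Hmga2, itself included, 0.138% had at least 4 matches, and of the 1677 for Lin28b 0.239% did. Since these genes are textbook let-7 targets, the matches describe what they share and are not a separate finding. The first match of each gene is shown with the 15 bases before it and the base after it, the match in capitals.
Lin28a (chr4:134005189-134005211, minus strand): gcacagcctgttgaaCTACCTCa
Lin28b (chr10:45381022-45381044, minus strand): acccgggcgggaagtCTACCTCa
Trim71 (chr9:114512472-114512494, minus strand): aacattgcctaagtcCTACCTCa
Hmga2 (chr10:120364224-120364246, minus strand): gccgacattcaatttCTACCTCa
Igf2bp1 (chr11:95961778-95961800, minus strand): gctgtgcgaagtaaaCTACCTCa
Igf2bp2 (chr16:22059473-22059495, minus strand): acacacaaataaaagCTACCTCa
Igf2bp3 (chr6:49086787-49086809, minus strand): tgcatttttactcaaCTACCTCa

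**Figure D1:**
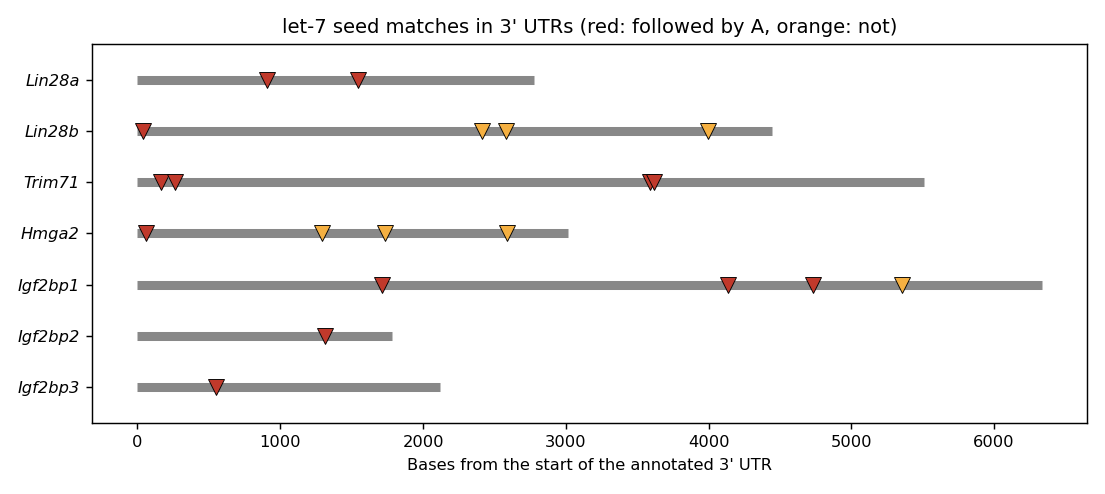
The 3′ UTRs of the 7 genes are drawn to scale, in bases from the start of the UTR, with a triangle at each match to the let-7 seed. Of the 20 matches, red ones are followed by an A and orange ones by another base; the 4 matches of Trim71 are all followed by an A and form 2 close pairs, while Lin28b and Hmga2 have 1 such match each, near the start of the UTR.

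The let-7 RNAs themselves were not measured, because the libraries were of poly(A) mRNA.

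The libraries were comparable in scale, with summed FPKM of 531523 to 587798 and between 12244 and 12442 genes at 1 FPKM or more. Absolute depth is unknown, since the table holds no counts. The labels do not say whether replicates were separate cultures. P-values therefore reflect only how much these samples varied, in part perhaps for technical reasons. Evx1as, listed as 5730457N03Rik, stood at 0.0549, 0.104 and 0.0485 FPKM in the Evx1as KO libraries, at 5.01, 8.81 and 7.39 in those labelled EVX1 KO, and at 5.36 and 6.75 in WT. Evx1, which encodes a homeobox factor of the primitive streak, stood at 2.45, 3.84 and 0.541 FPKM in Evx1as KO, at 26.3, 20.8 and 31.7 in EVX1 KO and at 22.0 and 31.2 in WT. The Evx1 transcript therefore gives no check of the EVX1 KO label, and the label serves here as a name for those libraries.

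Markers of other cell types were read as summed FPKM and as limma calls, for the whole lists. Among all tested genes, 13.0% were called higher and 11.4% lower in Evx1as KO against WT. In EVX1 KO against WT 1.24% were called and 21.2% had an unadjusted p under 0.05 by limma. The 6 primitive streak and mesoderm markers (T, Mixl1, Eomes, Mesp1, Msgn1 and Tbx6) summed to 52.0, 135 and 39.6 FPKM in Evx1as KO, to 323, 304 and 333 in EVX1 KO, and to 326 and 366 in WT. Of them 5 were called lower in Evx1as KO against WT and 1 (Msgn1) in EVX1 KO against WT. The 6 primed epiblast markers summed to 386 to 420 FPKM in Evx1as KO, 236 to 268 in EVX1 KO and 142 to 176 in WT, and the 8 pluripotency markers to 931 to 987 FPKM in Evx1as KO, 557 to 580 in EVX1 KO and 517 to 617 in WT. Of the primed epiblast markers 5 were called higher in Evx1as KO and 3 (Fgf5, Otx2 and Zic2) in EVX1 KO against WT. Of the pluripotency markers 4 (Pou5f1, Nanog, Sox2 and Utf1) were called higher and Klf4 lower (log2 fold change −1.07 ± 0.19, limma adjusted p = 0.00622) in Evx1as KO against WT. Most of that sum was Pou5f1, at 423 ± 39.6 FPKM in Evx1as KO and 318 ± 14.1 in WT, and Utf1 (log2 fold change 1.52 ± 0.27, limma adjusted p = 0.00540). Endoderm markers summed to 1.49 to 7.77 FPKM in Evx1as KO, 63.7 to 96.5 in EVX1 KO and 21.3 to 45.5 in WT, with 3 of 5 called lower in Evx1as KO against WT. The trophoblast list, mostly keratin RNA, summed to 878 to 1444 FPKM in Evx1as KO, 1715 to 2179 in EVX1 KO and 2580 to 3092 in WT, with Elf5 at 0.0674 FPKM or less throughout, and 4 of its 5 tested genes were called lower in Evx1as KO against WT. Neuroectoderm markers summed to 98.7 to 115 FPKM in Evx1as KO, 33.0 to 80.0 in EVX1 KO and 75.9 to 96.9 in WT. Most of that sum was Nes, at 69.6 ± 12.5 FPKM in Evx1as KO and 70.5 ± 11.9 in WT. Sox1 (log2 fold change 1.69 ± 0.21, limma adjusted p = 0.00171) and Sox3 (2.19 ± 0.25, adjusted p = 0.00122) were called higher in Evx1as KO against WT. Fibroblast or feeder markers summed to 11.8 to 20.9 FPKM in Evx1as KO, 18.5 to 24.0 in EVX1 KO and 18.4 to 31.7 in WT, with Dcn, Lum and Postn under the filter and 1 of 4 (Col3a1) called lower in Evx1as KO against WT. In EVX1 KO against WT, limma called none of the pluripotency, endoderm, neuroectoderm, fibroblast or trophoblast lists, of which 4, 4, 0, 0 and 1 genes had an unadjusted p under 0.05. Single libraries decided some calls: in Evx1as KO against WT those of T and Eomes were lost without either WT replicate, of Klf4 and Hand1 without WT replicate 1, of Col3a1 without Evx1as KO replicate 1 or WT replicate 2, and of Pou5f1 without Evx1as KO replicates 1 or 2 or either WT replicate. In EVX1 KO against WT the call of Msgn1 was lost without either WT replicate, of Otx2 without EVX1 KO replicate 2, and of Zic2 without EVX1 KO replicate 2 or WT replicate 1. The part of such shifts in cell makeup in any result below was not tested. In bulk RNA, fewer cells of a type and less RNA per cell cannot be told apart.

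Lin28a and Igf2bp1 were the most abundant of the 7 genes in all 3 groups and Lin28b the least. FPKM is scaled per transcript length, so genes can be set side by side on it. In Evx1as KO the order of mean FPKM was Lin28a, Igf2bp1, Igf2bp3, Igf2bp2, Trim71, Hmga2 and Lin28b, and the library ranges overlapped only between Igf2bp3 and Igf2bp2 and between Igf2bp2 and Trim71 among neighbours. In EVX1 KO it was Lin28a, Igf2bp1, Hmga2, Igf2bp3, Trim71, Igf2bp2 and Lin28b, with overlap between Lin28a and Igf2bp1 and between Hmga2 and Igf2bp3. In WT it was Igf2bp1, Lin28a, Igf2bp3, Hmga2, Trim71, Igf2bp2 and Lin28b, with overlap between Igf2bp1 and Lin28a, Igf2bp3 and Hmga2, and Hmga2 and Trim71. Igf2bp2 and Hmga2 thus held opposite places in Evx1as KO and in the other groups, Igf2bp2 above Hmga2 in Evx1as KO and below it in EVX1 KO and WT.

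**Figure D2:**
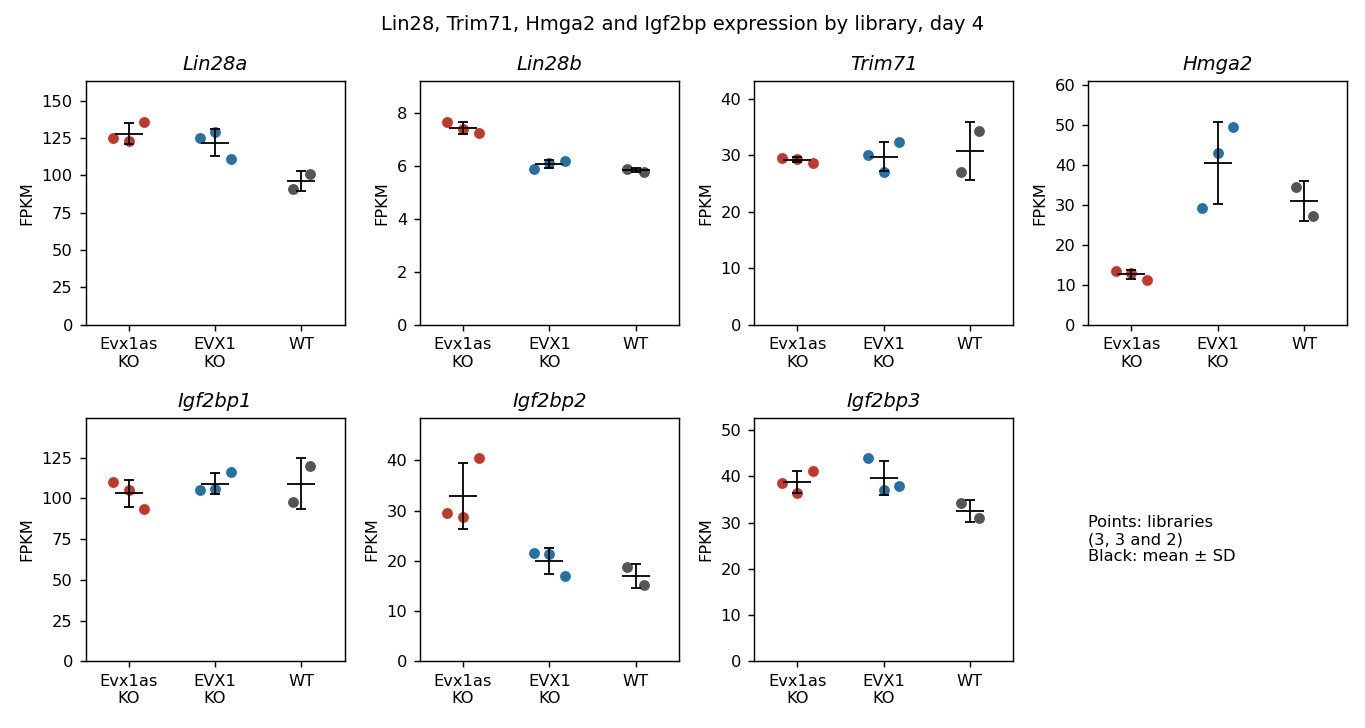
Each panel gives the FPKM of a gene in every library (points), with the group mean and SD in black; groups from left to right are Evx1as KO (3 libraries), EVX1 KO (3) and WT (2). Hmga2 lies at 11.3 to 13.5 FPKM in Evx1as KO, below all other libraries, and Igf2bp2 at 28.7 to 40.4 FPKM, above all other libraries.

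When Evx1as KO was compared with WT, Hmga2 fell while Igf2bp2 and Lin28a rose. The remaining 4 genes did not pass the threshold, which was a Benjamini-Hochberg adjusted p under 0.05 from limma across all 13188 genes. Of those genes 24.5% were called in this comparison, 13.0% higher and 11.4% lower, against 2 higher and 1 lower of the 7. The groups did not overlap for 5 of the 7 genes (Lin28a, Lin28b, Hmga2, Igf2bp2 and Igf2bp3), against 55.6% of all genes tested. The median log2 fold change was 0.24 over the 7 genes and 0.02 over all genes. Fold changes are on the log2(FPKM + 1) scale, with standard errors, and understate the change of low genes.

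None of the 7 passed when EVX1 KO was compared with WT, where limma called 1.24% of all genes, 0.690% higher and 0.554% lower. The median log2 fold change was 0.22 over the 7 genes and 0.02 over all genes. At an unadjusted p under 0.05, 2 of the 7 passed (Lin28a and Igf2bp3), against 21.2% of all genes, and the same 2 genes had groups that did not overlap, against 39.1% of all genes. With libraries weighted by their quality (limma's array weights), 1 of the 7, Lin28a, was called. Both knockouts are set against the same WT libraries. In the direct comparison of Evx1as KO with EVX1 KO, Hmga2 fell and Igf2bp2 rose, where 22.0% of all genes were called, 11.3% higher and 10.7% lower. The groups of that comparison did not overlap for 3 of the 7 (Hmga2, Igf2bp2 and Lin28b), against 40.8% of all genes, and the median log2 fold change was −0.02 over the 7 genes and 0.00 over all genes. These backgrounds moved with single libraries: the 3230 genes called in Evx1as KO against WT became 1414 without WT replicate 1, the 164 in EVX1 KO against WT became 4 without EVX1 KO replicate 2 and 643 without EVX1 KO replicate 3, and the 2903 in Evx1as KO against EVX1 KO became 1401 without Evx1as KO replicate 3.

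**Figure D3:**
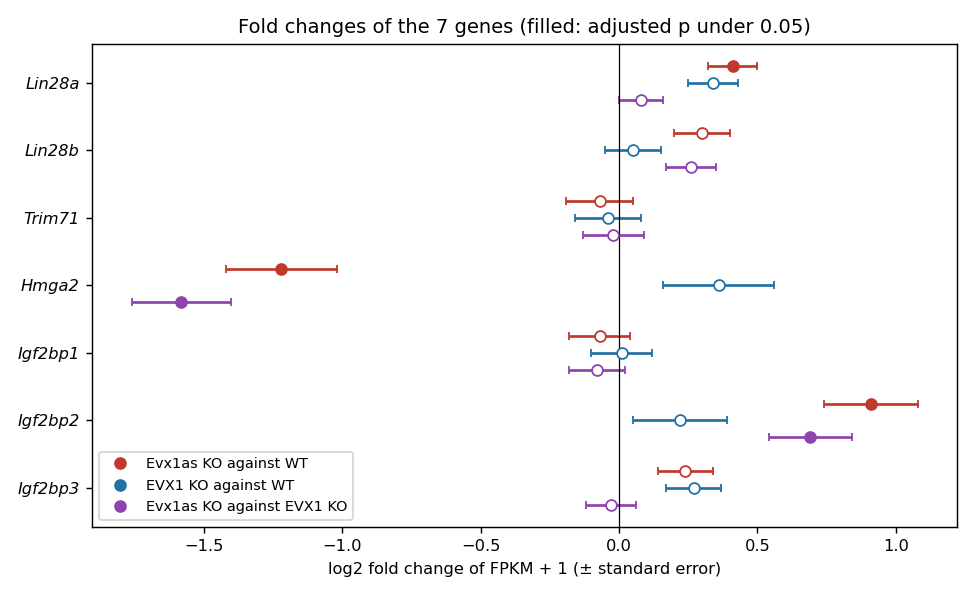
The log2 fold change of FPKM + 1 of each gene is plotted with its standard error for each knockout against WT and for Evx1as KO against EVX1 KO. Filled points had an adjusted p under 0.05; they are Lin28a, Hmga2 and Igf2bp2 for Evx1as KO against WT, and Hmga2 and Igf2bp2 for Evx1as KO against EVX1 KO.

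Lin28a (chromosome 4, 133559244 to 133574731, positions here and below being those the authors' table lists) encodes the LIN28 protein best known from undifferentiated embryonic stem cells. It stood at 125, 123 and 136 FPKM in Evx1as KO, at 125, 129 and 111 in EVX1 KO, and at 91.2 and 101 in WT. Both knockouts lay above both WT libraries, and they overlapped each other. Its mean was 128 ± 6.91 FPKM in Evx1as KO (SD, n = 3), 122 ± 9.21 in EVX1 KO (n = 3) and 96.0 ± 6.76 in WT (n = 2). The log2 fold change against WT was 0.41 ± 0.09 in Evx1as KO (limma, adjusted p = 0.0145), and 31.3% of tested genes changed by more. That call was lost without Evx1as KO replicate 3 (0.37, limma adjusted p = 0.0538) and without WT replicate 1 (0.34, adjusted p = 0.0976). In EVX1 KO the log2 fold change against WT was 0.34 ± 0.09 (limma adjusted p = 0.103). Evx1as KO over EVX1 KO it was 0.08 ± 0.08 (limma adjusted p = 0.548), so that a difference between the knockouts was not shown.

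Lin28b (chromosome 10, 45096424 to 45190007) encodes the second LIN28 protein, which also blocks let-7 maturation. It stood at 7.67, 7.38 and 7.24 FPKM in Evx1as KO, at 5.88, 6.12 and 6.17 in EVX1 KO, and at 5.89 and 5.78 in WT. The 3 Evx1as KO libraries lay above the other 5, and EVX1 KO overlapped WT. The log2 fold change of Evx1as KO was 0.30 ± 0.10 over WT (limma adjusted p = 0.0509) and 0.26 ± 0.09 over EVX1 KO (limma adjusted p = 0.0646), both short of the threshold. It passed over WT with a pseudocount of 0.1 FPKM, with array weights or without the intensity trend (lowest limma adjusted p = 0.0420), and over EVX1 KO with array weights (0.0211). EVX1 KO differed from WT by 0.05 ± 0.10 (limma adjusted p = 0.817). Lin28b made up 5.05% to 5.77% of summed Lin28a and Lin28b FPKM in Evx1as KO, 4.51% to 5.25% in EVX1 KO, and 5.42% and 6.06% in WT. Most of the summed FPKM was thus Lin28a in every library.

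Trim71 (chromosome 9, 114420390 to 114473487), whose protein represses cell cycle inhibitor mRNAs in mouse stem cells, showed no detectable change. It stood at 29.5, 29.4 and 28.7 FPKM in Evx1as KO, at 30.0, 27.0 and 32.3 in EVX1 KO, and at 27.1 and 34.4 in WT. The groups overlapped, and the WT libraries lay furthest apart. The log2 fold change was −0.07 ± 0.12 for Evx1as KO over WT (limma adjusted p = 0.720), −0.04 ± 0.12 for EVX1 KO over WT (0.868) and −0.02 ± 0.11 for Evx1as KO over EVX1 KO (0.889). A p that misses the threshold does not show equal levels.

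Hmga2 (chromosome 10, 119798330 to 119913991) moved furthest of the 7. It stood at 13.5, 13.0 and 11.3 FPKM in Evx1as KO, at 29.2, 42.9 and 49.4 in EVX1 KO, and at 34.4 and 27.3 in WT. The highest Evx1as KO library lay below the lowest of the other 5, while EVX1 KO overlapped WT and was spread widest. Its mean was 12.6 ± 1.15 FPKM in Evx1as KO (SD, n = 3), 40.5 ± 10.3 in EVX1 KO (n = 3) and 30.9 ± 5.05 in WT (n = 2). The log2 fold change of Evx1as KO was −1.22 ± 0.20 over WT (limma adjusted p = 0.00430) and −1.58 ± 0.18 over EVX1 KO (limma adjusted p = 8.56e-04). Only 3.31% and 1.14% of tested genes changed by more in these comparisons. Both calls held under all 16 alternatives run. EVX1 KO over WT gave 0.36 ± 0.20 (limma adjusted p = 0.341). The Hmga2 pseudogene Hmga2-ps1, listed at 0.0934 to 0.779 FPKM, and the other rows overlapping Hmga2, at 0.299 FPKM or less, carried little signal beside it.

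The relative of Hmga2, Hmga1, which encodes the other AT-hook chromatin protein of this family, moved the other way. It stood at 181, 198 and 206 FPKM in Evx1as KO, at 126, 146 and 134 in EVX1 KO, and at 139 and 143 in WT. The Evx1as KO libraries lay above all others. In Evx1as KO the log2 fold change was 0.46 ± 0.09 over WT (limma adjusted p = 0.00877) and 0.53 ± 0.08 over EVX1 KO (limma adjusted p = 0.00343). The call over WT was lost without WT replicate 1 (adjusted p = 0.0577). The ratio of Hmga2 to Hmga1 FPKM was 0.0749, 0.0654 and 0.0550 in Evx1as KO, 0.233, 0.294 and 0.369 in EVX1 KO, and 0.248 and 0.190 in WT. All 3 Evx1as KO ratios lay below the other 5.

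Igf2bp2 (chromosome 16, 22059081 to 22163372) encodes the IGF2BP paralog that stays expressed in many adult tissues, and HMGA2 is known to promote its transcription in other mouse tissues. It stood at 29.6, 28.7 and 40.4 FPKM in Evx1as KO, at 21.5, 21.3 and 17.0 in EVX1 KO, and at 18.7 and 15.2 in WT. All Evx1as KO libraries lay above the other 5, with replicate 3 highest. Its mean was 32.9 ± 6.53 FPKM in Evx1as KO (SD, n = 3), 20.0 ± 2.52 in EVX1 KO (n = 3) and 17.0 ± 2.45 in WT (n = 2). The log2 fold change of Evx1as KO was 0.91 ± 0.17 over WT (limma adjusted p = 0.00689) and 0.69 ± 0.15 over EVX1 KO (limma adjusted p = 0.0144). The call over WT was lost without WT replicate 2 (0.77, limma adjusted p = 0.0585), and that over EVX1 KO held under all 16 alternatives. EVX1 KO over WT gave 0.22 ± 0.17 (limma adjusted p = 0.484). The ratio of Igf2bp2 to Hmga2 FPKM was 2.19, 2.21 and 3.57 in Evx1as KO, 0.735, 0.498 and 0.345 in EVX1 KO, and 0.543 and 0.558 in WT. Igf2bp2 exceeded Hmga2 in the Evx1as KO libraries only.

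Igf2bp1 (chromosome 11, 95818477 to 95867258), which encodes an IGF2BP paralog typical of embryonic tissue, was the main Igf2bp mRNA. It stood at 110, 105 and 93.7 FPKM in Evx1as KO, at 105, 106 and 116 in EVX1 KO, and at 97.8 and 120 in WT. The groups overlapped. Log2 fold changes were −0.07 ± 0.11 for Evx1as KO over WT (limma adjusted p = 0.668), 0.01 ± 0.11 for EVX1 KO over WT (0.969) and −0.08 ± 0.10 for Evx1as KO over EVX1 KO (0.586).

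Igf2bp3 (chromosome 6, 49035216 to 49164953), the other mainly embryonic paralog, stood at 38.6, 36.5 and 41.2 FPKM in Evx1as KO, at 43.9, 37.1 and 37.9 in EVX1 KO, and at 34.3 and 30.9 in WT. Both knockouts lay above WT in every library. Neither difference passed limma, with log2 fold changes over WT of 0.24 ± 0.10 in Evx1as KO (adjusted p = 0.121) and 0.27 ± 0.10 in EVX1 KO (0.186). Evx1as KO over EVX1 KO gave −0.03 ± 0.09 (limma adjusted p = 0.849). Igf2bp3 lies on the chromosome of Evx1, at a distance of 3.10 Mb by the listed positions. The median gene of chromosome 6 stayed within 0.02 (log2) of its mean over libraries in each library. That median covers 362 genes of the whole chromosome, and a local effect near Evx1 was not tested.

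The makeup of the Igf2bp family is given as a description, with no test. Summed Igf2bp FPKM was 178, 171 and 175 in Evx1as KO, 170, 164 and 171 in EVX1 KO, and 151 and 166 in WT. Igf2bp2 supplied 16.6%, 16.8% and 23.1% of that sum in Evx1as KO, 12.6%, 13.0% and 9.95% in EVX1 KO, and 12.4% and 9.19% in WT. Every Evx1as KO library had a higher Igf2bp2 share than every other library, while EVX1 KO and WT overlapped. Igf2bp1 supplied 59.0% ± 4.82 in Evx1as KO (SD, n = 3), 64.6% ± 3.16 in EVX1 KO (n = 3) and 68.6% ± 5.16 in WT (n = 2). The Igf2bp3 share was 22.2% ± 1.14 in Evx1as KO, 23.5% ± 1.97 in EVX1 KO and 20.7% ± 2.83 in WT.

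**Figure D4:**
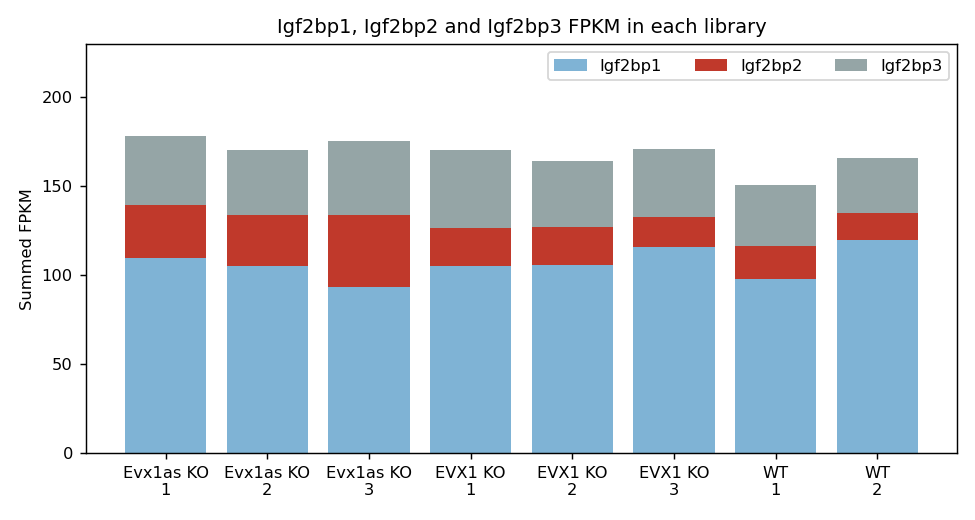
Stacked bars give the FPKM of Igf2bp1, Igf2bp2 and Igf2bp3 in each of the 8 libraries, so that bar height is their sum. The sums lie between 151 and 178 FPKM; the Igf2bp2 segment is 28.7 to 40.4 FPKM in Evx1as KO and 15.2 to 21.5 FPKM in the other libraries.

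Genes around the circuit were read from 7 lists, given as counts with no test of a list. Some genes, among them Ago2, Insr and Hmga1, stand in more than 1 list, so the counts of the lists are not separate observations. Among all tested genes, 13.0% were called higher and 11.4% lower in Evx1as KO against WT. In EVX1 KO against WT 1.24% were called and 21.2% had an unadjusted p under 0.05 by limma. For Evx1as KO against EVX1 KO the shares were 11.3% higher and 10.7% lower. All-gene median log2 fold changes were 0.02, 0.02 and 0.00 in these comparisons. Of 18 tested genes of let-7 processing, 4 rose and 1 fell in Evx1as KO against WT, with a median log2 fold change of 0.12. Without Evx1as KO replicate 1, 2 rose, and without WT replicate 2, 1 rose. None was called in EVX1 KO against WT by limma, where 3 had an unadjusted p under 0.05 and the median was also 0.12. Hnrnpa1, whose protein is known to bind let-7 precursors and hinder their processing in human cells, rose to 739 ± 58.4 FPKM in Evx1as KO, against 498 ± 61.4 in WT (log2 fold change 0.57 ± 0.10, limma adjusted p = 0.00541). Prkra, a Dicer partner, had a log2 fold change of 0.57 ± 0.12 (limma adjusted p = 0.0116), lost without WT replicate 2 (0.0746). Ago2, which encodes the slicing Argonaute, gave 0.42 ± 0.10 (limma adjusted p = 0.0194). That call was lost without Evx1as KO replicate 1 and without either WT replicate (adjusted p up to 0.109). Ago1 gave 0.43 ± 0.14 over WT in Evx1as KO (limma adjusted p = 0.0526) and 0.55 ± 0.14 in EVX1 KO (adjusted p = 0.0820), both short of the threshold. The calls of Dis3l2, the exonuclease that degrades uridylated let-7 precursors (0.60 ± 0.19, limma adjusted p = 0.0494), and of Tarbp2, another Dicer partner (−0.41 ± 0.12, adjusted p = 0.0365), held in 5 and 8 of 16 alternatives. Both were lost without Evx1as KO replicate 3, EVX1 KO replicate 2 or WT replicate 2. Dis3l2 was also lost without Evx1as KO replicate 1 or EVX1 KO replicates 1 or 3 (adjusted p up to 0.327), and Tarbp2 without Evx1as KO replicate 2 or WT replicate 1 (up to 0.140). Zcchc11 and Zcchc6 encode the terminal uridylyl transferases TUT4 and TUT7 that LIN28A recruits. Zcchc11 stood at 11.1, 9.87 and 12.0 FPKM in Evx1as KO, at 12.5, 11.0 and 10.3 in EVX1 KO, and at 9.01 and 8.09 in WT (Evx1as KO over WT, limma adjusted p = 0.0795). For Zcchc6 the adjusted p was 0.557.

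Known let-7 targets outside the 7 genes moved in both directions. Of 24 tested, 6 rose and 4 fell in Evx1as KO against WT, with a median log2 fold change of −0.06. These counts rest on single libraries: 1 rose and 2 fell without WT replicate 1, 3 rose and 2 fell without Evx1as KO replicate 3, and 4 rose and 2 fell without WT replicate 2, where the median was 0.05. None was called by limma in EVX1 KO against WT (4 at an unadjusted p under 0.05, median 0.13; 1 rose without EVX1 KO replicate 3, median 0.02), and 3 rose and 8 fell in Evx1as KO against EVX1 KO (median −0.04). The falls numbered 5 without Evx1as KO replicate 3 or EVX1 KO replicate 2. Ccnd1, which encodes a cyclin of G1 phase, stood at 36.3, 41.6 and 26.7 FPKM in Evx1as KO, at 55.8, 62.5 and 65.4 in EVX1 KO, and at 63.4 and 62.9 in WT. Over WT the log2 fold change was −0.86 ± 0.16 (limma adjusted p = 0.00702). Insr, the insulin receptor gene, rose to 6.44 ± 0.883 FPKM in Evx1as KO, against 3.15 ± 0.140 in WT (log2 fold change 0.83 ± 0.13, limma adjusted p = 0.00386). Arid3a, a DNA-binding factor, fell to 14.7 ± 1.25 FPKM in Evx1as KO, against 24.1 ± 0.0554 in WT (−0.68 ± 0.10, limma adjusted p = 0.00256). The calls over WT of Ccnd1, Insr and Arid3a held under all 16 alternatives. Ccnd2, the gene of another G1 cyclin, had 2.23, 1.34 and 0.973 FPKM in Evx1as KO, 3.55, 7.87 and 11.0 in EVX1 KO, and 7.59 and 4.40 in WT. Its fall over WT (−1.47 ± 0.39, limma adjusted p = 0.0257) and that of Myc, a growth-promoting transcription factor (17.0 ± 6.47 FPKM in Evx1as KO and 33.7 ± 3.25 in WT, adjusted p = 0.0240), were lost without either WT replicate and without Evx1as KO replicate 3, with adjusted p up to 0.168 and 0.134. For Ccnd2 the call was also lost without Evx1as KO replicate 2, and for Myc without Evx1as KO replicate 1.

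Seed matches across the genome were set beside these counts. Of 9744 tested genes with an annotated 3′ UTR and no CTACCTC match, 13.7% rose and 12.2% fell in Evx1as KO against WT. With 1 match the shares were 12.6% and 12.9% of 1031 genes, and with 2 or more matches 15.9% and 12.4% of 145 genes. Median log2 fold changes of these classes were 0.02, −0.02 and 0.04. In EVX1 KO against WT the medians were 0.02, 0.03 and 0.04, and in Evx1as KO against EVX1 KO 0.00, −0.04 and −0.03. In EVX1 KO against WT 0.729%, 0.582% and 0% rose, and 0.585%, 0.388% and 0% fell. For Evx1as KO against EVX1 KO the shares that rose were 12.0%, 9.60% and 11.0%. The shares that fell were 11.3%, 13.4% and 15.9%. Medians were close to 0 in each class, and whether the shares differed between classes was not tested. The 7 genes were left out of these classes.

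Among 8 tested targets of TRIM71, 1 rose and 3 fell in Evx1as KO against WT (median −0.12). The gene that rose was Ago2, already counted above among the let-7 processing genes. In EVX1 KO against WT 1 fell (median −0.17, and −0.06 without EVX1 KO replicate 1 or −0.07 without WT replicate 2). In Evx1as KO none rose without Evx1as KO replicate 1 or either WT replicate, and 2 rose without Evx1as KO replicate 3 or EVX1 KO replicates 1 or 3. Cdkn1a, which encodes the cell cycle inhibitor p21 and is repressed by TRIM71 in mouse stem cells, had 74.1, 81.1 and 76.6 FPKM in Evx1as KO, 102, 93.2 and 90.3 in EVX1 KO, and 130 and 131 in WT. The 3 groups did not overlap. Its log2 fold change over WT was −0.75 ± 0.08 in Evx1as KO (limma adjusted p = 0.00118), which held under all 16 alternatives. In EVX1 KO it was −0.45 ± 0.08 (limma adjusted p = 0.0438), which held under 5 of 16 and was lost without any one of 7 libraries, the exception being EVX1 KO replicate 3 (adjusted p up to 0.217). Tgfbr2, a TGF-beta receptor gene (−0.48 ± 0.14, limma adjusted p = 0.0415), and E2f7, a repressor of cell cycle genes (−0.39 ± 0.12, adjusted p = 0.0498), were the other falls in Evx1as KO. Each held in 5 alternatives, with adjusted p up to 0.194 and 0.308, and both calls were lost without any single library of EVX1 KO, without WT replicate 2 and without Evx1as KO replicates 1 or 3. Tgfbr2 was also lost without WT replicate 1, and E2f7 without Evx1as KO replicate 2. Egr1, an immediate early transcription factor, had a log2 fold change of 0.84 ± 0.28 (limma adjusted p = 0.0537).

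The insulin-like growth factor axis includes the mRNA that named the IGF2BP proteins. Of its 12 tested genes, 2 rose (Grb10 and Insr, the latter also counted among the let-7 targets) and 3 fell in Evx1as KO against WT (median 0.05). In EVX1 KO against WT limma called 1, Akt1, which fell (median 0.15). At an unadjusted p under 0.05 limma gave 6 genes there, 5 higher and 1 lower, against 21.2% of all genes. Igf2, the growth factor gene, stood at 48.5, 81.1 and 88.0 FPKM in Evx1as KO, at 103, 143 and 140 in EVX1 KO, and at 148 and 138 in WT. The Evx1as KO libraries were the 3 lowest. Its log2 fold change over WT was −1.02 ± 0.24 (limma adjusted p = 0.0162), lost without either WT replicate (adjusted p up to 0.0930) or with no filter on low values. Igfbp4, which encodes a secreted binding protein of these growth factors, fell to 7.10 ± 2.52 FPKM in Evx1as KO, against 36.0 ± 0.239 in WT (−2.24 ± 0.20, limma adjusted p = 6.41e-04). It stood at 61.6, 64.5 and 59.4 FPKM in EVX1 KO, above both WT libraries. That difference was not called (0.76 ± 0.20, limma adjusted p = 0.0926), though it passed in 3 of 16 alternatives. Igfbp5, the gene of another such protein, gave 1.17 ± 0.38 in Evx1as KO over WT (limma adjusted p = 0.0531). Over EVX1 KO it gave 1.39 ± 0.34 (limma adjusted p = 0.0213). That call was lost without Evx1as KO replicate 3, without EVX1 KO replicates 1 or 2, and with no filter on low values. Grb10, an imprinted gene whose protein dampens insulin receptor signaling, rose to 86.4 ± 8.78 FPKM in Evx1as KO, against 49.3 ± 0.139 in WT (0.79 ± 0.09, limma adjusted p = 0.00149). Akt1, the kinase gene downstream of the receptors, stood at 37.9, 40.4 and 40.6 FPKM in Evx1as KO, at 38.5, 41.1 and 43.0 in EVX1 KO, and at 62.3 and 53.8 in WT. Its log2 fold change over WT was −0.54 ± 0.09 in Evx1as KO (limma adjusted p = 0.00551) and −0.49 ± 0.09 in EVX1 KO (limma adjusted p = 0.0465). The EVX1 KO call held in 5 of 16 alternatives and was lost without any one of 7 libraries, the exception being EVX1 KO replicate 3 (adjusted p up to 0.236). Igfbp4, Grb10 and Akt1 held under all 16 alternatives in Evx1as KO against WT. Igf1 and the noncoding H19 did not pass the filter.

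Of 16 tested partners of the IGF2BP proteins and m6A factors, limma called 1 higher and none lower in Evx1as KO against WT (median −0.03), with 1 higher and 4 lower at an unadjusted p under 0.05. Without Evx1as KO replicate 1, EVX1 KO replicate 1 or EVX1 KO replicate 3, 1 fell. In EVX1 KO against WT limma called none (2 at an unadjusted p under 0.05, median 0.03). The gene that rose was Fto, an m6A demethylase, with 32.4, 28.0 and 34.9 FPKM in Evx1as KO, 19.2, 17.1 and 21.7 in EVX1 KO, and 20.6 and 20.7 in WT. Its log2 fold change was 0.59 ± 0.12 over WT (limma adjusted p = 0.0106) and 0.69 ± 0.11 over EVX1 KO (limma adjusted p = 0.00392). The call over WT was lost without either WT replicate (adjusted p up to 0.0615). Mettl3, the m6A methyltransferase gene, gave −0.50 ± 0.20 over WT (limma adjusted p = 0.104). Of the 4 tested relatives of Trim71 and Hmga2, only Hmga1 was called in Evx1as KO against WT and against EVX1 KO, and Trim2, Trim3 and Trim32 were not; the list's median was −0.06 over WT. The Hmga1 call over WT was lost without WT replicate 1.

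Among 15 tested RNA-binding proteins of stem cells, 3 rose and 2 fell in Evx1as KO against WT (median −0.09). Without WT replicate 1, 1 rose and 1 fell; the falls also numbered 1 without WT replicate 2, EVX1 KO replicate 2 or any Evx1as KO replicate, and without Evx1as KO replicate 1 the median was 0.01. Msi1, which encodes a translational regulator of neural stem cells, had 39.1, 26.8 and 40.9 FPKM in Evx1as KO, 18.8, 14.7 and 14.0 in EVX1 KO, and 10.9 and 8.35 in WT. Over WT the log2 fold change was 1.77 ± 0.20 (limma adjusted p = 0.00118). Esrp2, an epithelial splicing factor gene, fell to 13.2 ± 0.295 FPKM in Evx1as KO, against 23.4 ± 2.73 in WT (−0.77 ± 0.11, limma adjusted p = 0.00282). Both held under all 16 alternatives. L1td1, whose protein works with LIN28 in human embryonic stem cells, had a log2 fold change of 0.62 ± 0.15 over WT (limma adjusted p = 0.0205). That call was lost without Evx1as KO replicate 2, without WT replicate 1 (adjusted p up to 0.121) and with no filter on low values.

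**Figure D5:**
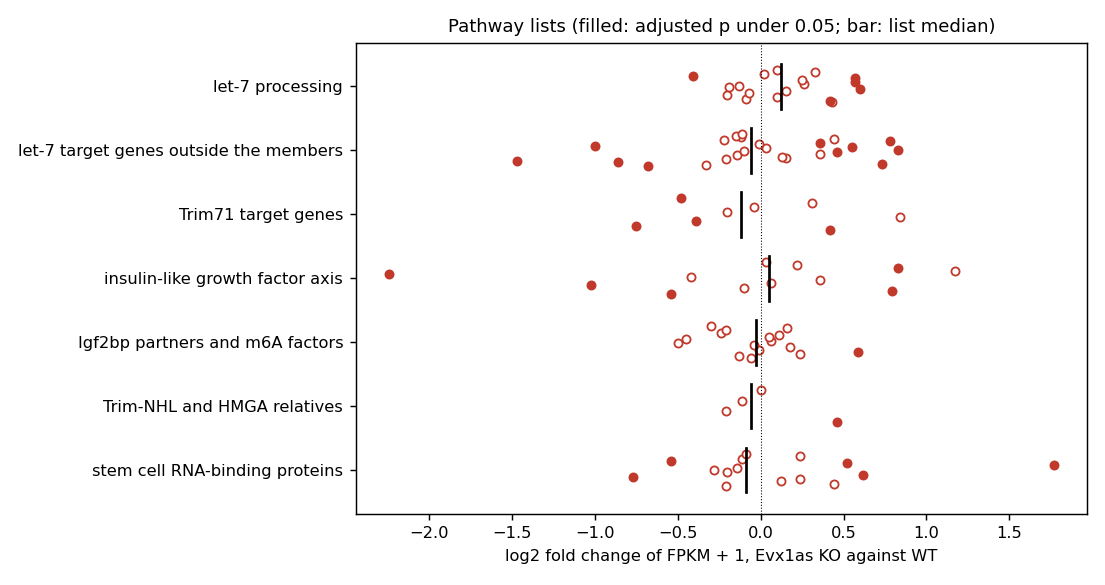
Each point is a tested gene of a list, at its log2 fold change of FPKM + 1 in Evx1as KO against WT; filled points had an adjusted p under 0.05 and black bars are list medians. List medians lie between −0.12 and 0.12, with called genes on both sides of 0 in 5 of the 7 lists. A gene that belongs to several lists is drawn in each.

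The genes whose levels most resembled each of the 7 were taken as the 3 with the highest Pearson r of log2(FPKM + 1) over the 8 libraries, among 7801 other genes that averaged 5 FPKM or more. These values are a description over 8 libraries of 3 genotypes and carry no test. For Trim71 and Igf2bp1 the groups overlapped in all 3 comparisons, so a likeness to them is not a difference between groups. For Hmga2 they were Sde2 (r = 0.987), Angel2 (0.984) and Rbm18 (0.981). Sde2 had 13.4, 13.6 and 12.6 FPKM in Evx1as KO, 20.9, 22.5 and 22.8 in EVX1 KO, and 20.6 and 18.6 in WT. For Igf2bp2 they were Gkap1 (0.986), Rhoq (0.980) and Klc3 (0.976), and for Lin28a they were Man2a2 (0.987), Eml4 (0.983) and Epn1 (0.979). For Lin28b they were Foxi3 (0.986), Suclg2 (0.979) and Snurf (0.979). Foxi3 had 55.4, 43.7 and 39.2 FPKM in Evx1as KO, 11.7, 13.7 and 14.2 in EVX1 KO, and 8.83 and 12.3 in WT, a wider separation than that of Lin28b. Igf2bp3 was matched by Zcchc11 (0.971), Trpc4ap (0.969) and Eefsec (0.968), and Igf2bp1 by Dgkh (0.978), Fam169a (0.955) and Ostc (0.920). Trim71 had the lowest values, with Rraga (0.903), Tmem165 (0.889) and Eif2ak3 (0.885).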

How the data were processed

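Groups and replicate numbers came from the sample labels. The authors deposited 1 table of FPKM for all 8 libraries. Per the labels' protocols, mRNA was isolated with oligo(dT) beads and libraries were made with a stranded TruSeq kit. CASAVA, TopHat2 2.0.11 and the builds mm10 and mm9 are named without a role, per the submitters' processing notes. The sources used here do not name the FPKM program, the annotation or the strand setting. FPKM holds no counts, so depth is unknown and no counting interval is given. The table's coordinates are not those of GRCm38 and are printed as deposited. UTR sites come from GENCODE M21 on GRCm38.

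The 13188 genes at 1 FPKM or more in 2 or more libraries entered 1 limma 3.58.1 fit (R 4.3.3) of log2(FPKM + 1), two-sided, with a mean per group, empirical Bayes with intensity trend and Benjamini-Hochberg adjustment over all genes. The step was tested on simulated data. The alternatives were another pseudocount, other filters, median-ratio scaling, only the groups compared, array weights, no trend, a replicate block and leaving out each library. The members and lists were chosen with earlier results of these data known. From each list, the 4 genes with the largest absolute change were eligible for naming. Ago2, Tarbp2, Zcchc11, Zcchc6, Arid3a, E2f7, Grb10 and Akt1 were named after their values were seen. Software was Python 3.11.15 with matplotlib 3.10.9, numpy 2.4.6 and pandas 2.3.3.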

Additional observations from a re-analysis of the deposited data

How the results depend on the processing

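All limits below concern 2 or 3 libraries a group. Of the member calls, 3 were lost (Lin28a without Evx1as KO replicate 3 and without WT replicate 1, Igf2bp2 without WT replicate 2, all in Evx1as KO against WT) and 5 were gained. Signs changed only for values that were not called. For Evx1as KO against WT, Trim71 gave 0.10 and Igf2bp1 0.07 without WT replicate 2, with lowest values of −0.23 and −0.22 without WT replicate 1. For EVX1 KO against WT, Trim71 gave 0.03 without EVX1 KO replicate 2 and 0.13 without WT replicate 2 (lowest −0.21), and Igf2bp1 gave −0.01 with median-ratio scaling, −0.02 with array weights, −0.04 without EVX1 KO replicate 3 and −0.14 without WT replicate 1 (highest 0.15). For Evx1as KO against EVX1 KO, Trim71 gave 0.07 with array weights and 0.03 without EVX1 KO replicate 3 (lowest −0.09), and Igf2bp3 gave 0.05 with array weights, 0.01 without Evx1as KO replicate 2 and 0.05 without EVX1 KO replicate 1 (lowest −0.07). Leaving out 1 library gave 1414 (without WT replicate 1) to 3427 called genes in Evx1as KO against WT, against 3230 with all libraries. It gave 4 (without EVX1 KO replicate 2) to 643 (without EVX1 KO replicate 3) in EVX1 KO against WT, against 164, and 1401 (without Evx1as KO replicate 3) to 2671 in Evx1as KO against EVX1 KO, against 2903. In EVX1 KO against WT the count was 28 with no filter, 31 with only those groups, 78 with no trend and 1148 with array weights, where 1 member (Lin28a) was called. Array weights gave 5552 in Evx1as KO against EVX1 KO. The causes were not tested. The share of genes called beside which the members were read therefore moves with the setting, most of all in EVX1 KO against WT. All 7 members kept a let-7 seed match with the shortest annotated UTR (20 matches) and with a match of 6 bases, TACCTC (29 matches).

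The labels give no pairing by replicate number. Deviations of same-numbered libraries from their group means correlated at −0.099 to 0.076, and not every library correlated best with its own number. Deviations within a group sum to 0, and those of the 2 WT libraries mirror each other. These correlations therefore cannot decide whether the samples were paired. With the number as a replicate block, 2575, 28 and 2564 genes were called in Evx1as KO against WT, in EVX1 KO against WT and in Evx1as KO against EVX1 KO, and no member call changed.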
